A study of Mus musculus with 9 samples.

Results

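This account covers 10 mouse mRNAs that encode LDL receptor-related proteins, ABCA lipid transporters and the sterol sensor Scap, in brain polyribosomes crosslinked to the RNA-binding protein FMRP. The members were taken by symbol from the authors' gene table (Lrp1, Lrp1b, Lrp3, Lrp5, Lrp6, Lrp8, Abca1, Abca2, Abca3 and Scap), and all 10 were found there, out of 8924 genes with an FMRP tag. Tags came from HITS-CLIP, in which ultraviolet light fixes a protein to the RNA it touches and the RNA fragments that precipitate with the protein are sequenced. Brain polyribosomes came from cortex and cerebellum cut away from white matter, from pools of FVB littermates, and the labels describe the Protocol 1 mice as male. Cycloheximide, which holds ribosomes on mRNA, was in the buffers of every group.

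The 2 FMRP libraries of Protocol 2 (dissociation in 2% SDS, Illumina sequencing) came from P11 and P13 mice and used the polyclonal antibody ab17722. In Protocol 1 (1% SDS, 454 sequencing), FMRP was precipitated with the mixed monoclonal antibodies 7G1-1 and 2F5 at P14, P15 and P25, and with ab17722 at P14 and P25. The 2 Hu libraries were made from the other portions of the P11 and P13 lysates with a human antiserum to the neuronal Hu proteins, which also bind mRNA on polyribosomes. Libraries made from Fmr1-null mice were not analysed here. Each library is 1 pool of mice, and replicates of a group differ in age.

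FMRP is the protein lost in fragile X syndrome, and it binds mRNAs that are being translated in neurons. The LDL receptor family comprises single-pass membrane proteins that bind lipoproteins and other extracellular ligands. Lrp1 is a large endocytic receptor that takes up apolipoprotein E particles and is present at synapses, and Lrp8 (ApoER2) is a receptor for reelin and apolipoprotein E in neurons. Lrp5 and Lrp6 are co-receptors of Wnt signalling rather than lipid carriers, and Lrp1b is a close relative of Lrp1. ABCA proteins use ATP to move lipids across or onto membranes: Abca1 passes cholesterol to apolipoproteins, Abca3 loads phospholipid into the lamellar bodies of the lung, and Abca2 is abundant in brain, above all in oligodendrocytes. Scap escorts the SREBP transcription factors to the Golgi when sterols are low, which turns on cholesterol and fatty acid synthesis.

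The number of transcript tags was 4397 to 7713 in the 454 libraries and 25873 to 49847 in the Illumina libraries. A gene with 0 tags could therefore still have up to 389 to 682 CPM (tag counts divided by the tags of the library and scaled to a common total) on 454 and 60.2 to 116 CPM on Illumina, taking 3 tags as the limit. The FMRP libraries held tags of 4 to 8 of 8 neuron markers, and the Hu libraries of 7 to 8. Summed, these ranged from 2729 to 6400 CPM in FMRP libraries and from 8580 to 12498 CPM in Hu libraries. Summed oligodendrocyte markers (4 to 8 of 8 tagged in FMRP libraries, 6 to 8 in Hu libraries) ranged from 336 to 2586 CPM in FMRP libraries and from 5604 to 12639 CPM in Hu libraries. Summed astrocyte markers (2 to 5 of 7 tagged in FMRP libraries, 1 to 2 in Hu libraries) ranged from 533 to 1945 CPM in FMRP libraries and from 77.3 to 241 CPM in Hu libraries. Microglia markers (0 to 2 of 7 tagged in FMRP libraries, 0 to 1 in Hu libraries) reached at most 259 CPM in FMRP libraries and 38.7 CPM in Hu libraries. Tags count crosslinked RNA, and here more mRNA, more cells of a type and more binding per mRNA cannot be told apart.

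The 10 mRNAs fell far apart in FMRP tags. The authors' table gives 409 FMRP tags on them in 7 libraries, of which Lrp1 with 117 and Abca2 with 118 made up 57.5%. Scap had 52 tags, Abca3 38, Lrp8 29 and Lrp3 25, whereas Lrp6 had 17, Abca1 6, Lrp1b 5 and Lrp5 2. Lrp1, Lrp3, Lrp8, Abca2, Abca3 and Scap were tagged in all 7 FMRP libraries, that is 6 of the 10, against 7.27% of all lines of the table with a tag. In the authors' deposited table the same 6 have an FDR under 0.01, from 6.61e-09 for Lrp1 to 0.00392 for Lrp8, against 9.13% of lines with a tag. Since the 10 mRNAs were chosen with such results known, these shares describe them and test nothing.

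Tags were also divided by the deposited transcript length, which combines all transcripts of a gene. Per kb of this length, the order changed: Scap led with 174 ± 74.2 CPM per kb (SD, n = 7 libraries) and Abca2 followed with 162 ± 47.3. They ranked 124th and 145th of 8249 genes with a tag and a length. Their order was not firm: Scap was the higher in 4 of 7 libraries, Abca2 was the higher in both Illumina libraries (92.7 and 146 CPM per kb, against 73.4 and 75.2 for Scap), and without the P14 monoclonal library Abca2 had 161 and Scap 159 CPM per kb. Lrp1 had 101 ± 60.6 CPM per kb, Lrp3 93.7 ± 83.1 and Abca3 57 ± 17.9. Lrp8 had 24.1 ± 10.3 CPM per kb, Lrp6 18.8 ± 20.4 and Abca1 5.17 ± 8.08, which was 2.4 without the P14 monoclonal library. Lrp5 with 1.5 ± 2.68 and Lrp1b with 0.767 ± 2.03 CPM per kb stood at the foot, at ranks 7383 and 7998. Lrp5 had 0.646 CPM per kb without the P11 library, and Lrp1b 0 without the P13 library. Between neighbours in this order, the step exceeded its own SD only from Abca3 to Lrp8 (mean difference 32.9 ± 18.1 CPM per kb, higher in 6 of 7 libraries). None of the 9 neighbouring pairs passed an exact two-sided sign-flip permutation test over the 7 libraries after Benjamini-Hochberg adjustment: the unadjusted p of the step from Abca3 to Lrp8 was 0.0312 and the adjusted p 0.281, where 0.0156 is the smallest unadjusted p possible. With 9 pairs, a pair alone at that smallest value could not pass after adjustment, and the pairs were set by these same values. The test therefore cannot decide whether the steps differ.

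**Figure D1:**
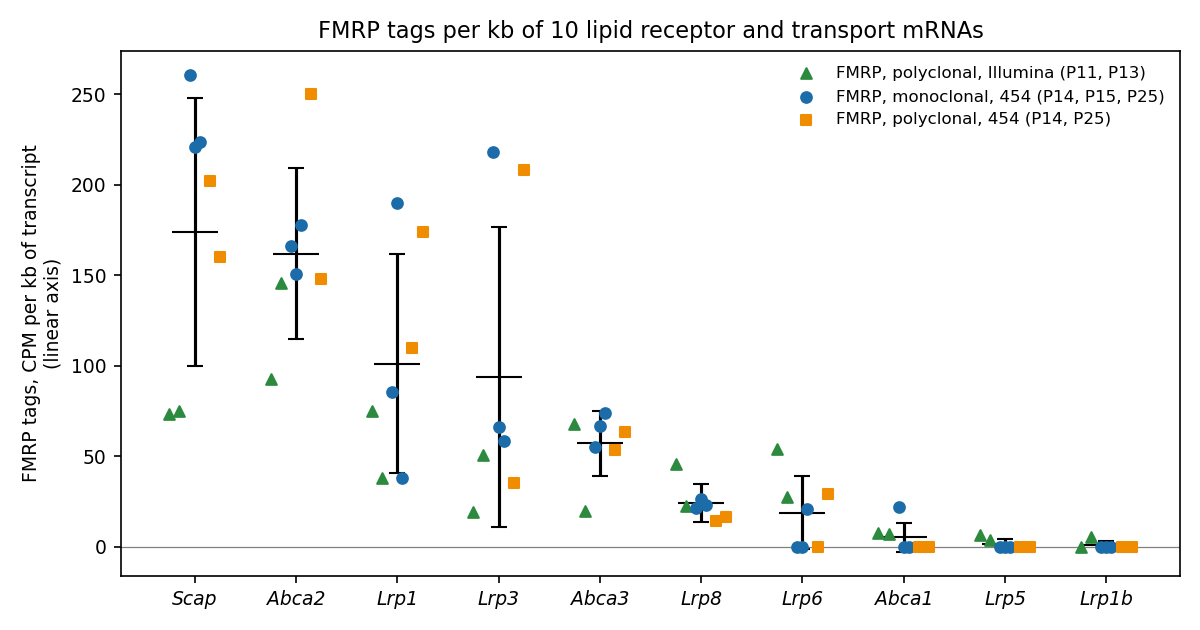
FMRP tags of the 10 mRNAs in CPM per kb of transcript (vertical axis, linear), from the authors' counts; each point is 1 of the 7 FMRP libraries, coloured by antibody and platform, and the black bar is the mean with its SD. Scap and Abca2 lie highest, and Lrp5 and Lrp1b lie at or near 0.

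The authors' table also lists an exon array intensity for each gene, from another measurement. It was 2278 for Abca2, 1276 for Lrp1, 581 for Lrp3, 528 for Scap and 403 for Abca3. It was 292 for Lrp8, 284 for Abca1, 263 for Lrp1b, 220 for Lrp6 and 114 for Lrp5. Over the 10 members the Spearman correlation of array intensity with CPM per kb was 0.867, and what lies behind it was not tested. These are readings of different probes, so they were not taken as a scale of abundance between genes, and tags per kb were not divided by them.

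Among the receptors, Lrp1 (gene ID 16971, mm9 chr10:126975214-127058204) was the most tagged. It had 1179 CPM in the P11 and 599 CPM in the P13 library of Protocol 2. In Protocol 1 it had 1341, 2981 and 599 CPM with the monoclonal antibodies at P14, P15 and P25, and 1729 and 2735 CPM with the polyclonal antibody at P14 and P25. The P15 and P25 monoclonal libraries were thus the highest and, level with the P13 library, the lowest of all 7. Lrp8 (16975, chr4:107474864-107549445) had 472 CPM in the P11 and 230 CPM in the P13 library of Protocol 2 and 144 to 271 CPM in the 5 libraries of Protocol 1. On 454 those values rest on 1 or 2 tags a library.

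Lrp3 (435965, chr7:35985953-36000364), a family member with no well established ligand, had 78.6 CPM at P11 and 207 CPM at P13 in Protocol 2. In Protocol 1 it had 894, 271 and 240 CPM with the monoclonal antibodies at P14, P15 and P25, and 144 and 855 CPM with the polyclonal antibody at P14 and P25. The high values came from 1 library of each antibody, each with 4 or 5 tags. Lrp6 (16974, chr6:134400435-134516931) had 315 CPM at P11 and 161 CPM at P13 in Protocol 2, against 0 to 171 CPM in Protocol 1. Levels of that size lie under the limit of a 454 library, so the lack of tags in 3 of those 5 libraries shows no lower level.

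Lrp5 (16973, chr19:3584877-3686554) had 1 tag in each of the P11 and P13 libraries of Protocol 2 and none in Protocol 1. All 5 counted FMRP tags of Lrp1b (94217, chr2:40452293-42509118) came from the P13 library of Protocol 2. Its deposited length, which combines all its transcripts, is nevertheless the longest of the 10, at 21.4 kb. Lrp1b also has a second line in the authors' table, without counts. The Wnt co-receptors Lrp5 and Lrp6 had 2 and 17 tags, with similar deposited lengths of 5.94 and 5.83 kb.

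Abca2 (11305, chr2:25284194-25304059) was the most even of the abundant members. It had 747 CPM at P11 and 1174 CPM at P13 in Protocol 2. In Protocol 1 it had 1341, 1220 and 1437 CPM with the monoclonal antibodies at P14, P15 and P25, and 2017 and 1197 CPM with the polyclonal antibody at P14 and P25. The P11 library was the lowest of the 7, and the P14 polyclonal library the highest. Abca3 (27410, chr17:24488991-24547146) had 550 CPM at P11 and 161 CPM at P13 in Protocol 2, and 432 to 599 CPM in Protocol 1, so that the P13 library alone stood low. Abca1 (11303, chr4:53043661-53172767) had 78.6 and 69.1 CPM in the P11 and P13 libraries of Protocol 2 and 1 tag in Protocol 1, in the P14 monoclonal library.

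Scap (235623, chr9:110235797-110287450) had 315 CPM at P11 and 322 CPM at P13 in Protocol 2. In Protocol 1 it had 1117, 949 and 958 CPM with the monoclonal antibodies at P14, P15 and P25, and 864 and 684 CPM with the polyclonal antibody at P14 and P25. Both Illumina values lay below all 5 values on 454, and how many other genes showed this was not counted. Among the polyclonal libraries alone, 31.7% of the 334 genes tested had both Protocol 2 values below both Protocol 1 values. Scap is also the only member with a value in the column of the authors' deposited table that holds a published ratio of wild type to knockout messenger ribonucleoprotein, where it is listed at 13.2, against a median of 9.9 over the 423 lines with a value.

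The Hu libraries of the same lysates show how many tags these mRNAs gave with another neuronal RNA-binding protein. Transcript tags of the 10 members together made up 0.396% of the P11 and 0.358% of the P13 FMRP library (Wilson 95% intervals 0.327 to 0.478% and 0.307 to 0.419%), against 0.0348% of the P11 and 0.0381% of the P13 Hu library (0.0183 to 0.0661% and 0.0244 to 0.0595%). Intervals and limits here cover counting error only. Lrp1 and Abca2 gave 72 of these FMRP tags each, where the 10 members had 106 at P11 and 158 at P13. The 10 were chosen with earlier results known, so the pooled shares describe them and test nothing. Of the 10 members, 4 passed the filter on low counts and all 4 had higher FMRP tags in edgeR's quasi-likelihood test, with 33.5% of the 1015 genes tested higher in FMRP and 26.7% lower. The 4 passed the filter on their FMRP tags, so their number is no support in itself.

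Abca2 had 20 FMRP tags at P11 and 52 at P13, against 0 Hu tags at either age. With library sizes scaled by TMM factors, this is at least 31.3-fold higher with FMRP, taking 3 tags over the Hu group as the limit, and at least 25.6-fold higher by library totals alone; the fitted log2 difference, which depends on the prior count, had an adjusted p of 0.0025 (edgeR). Oligodendrocyte markers, the cell type with most Abca2, moved the other way between these libraries (given above), and their part in the result was not tested. Scap had 9 and 17 FMRP tags at P11 and P13 and 0 and 0 Hu tags. It was at least 11.3-fold higher with FMRP (9.26-fold by library totals), at the same adjusted p of 0.0025 (edgeR). Without the P13 FMRP library Scap did not pass the filter on low counts. In genomic tags Scap had 22 from FMRP and 1 from Hu. The log2 difference there was 4.50 (adjusted p = 4.34e-05, edgeR), against 6.91 fitted on transcript tags.

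Lrp1 had 33 FMRP tags at P11 and 39 at P13, and 4 and 3 Hu tags at these ages, a log2 difference of 3.63 (SE 0.77, adjusted p = 0.00493, edgeR). Within the split lysates the log2 difference was 3.13 at P11 and 4.28 at P13. Lrp8 had 13 and 16 FMRP tags at P11 and P13, against 1 and 5 Hu tags, a log2 difference of 2.63 (SE 0.64, adjusted p = 0.00807, edgeR). This call was lost without any of 3 libraries: the adjusted p was 0.125 without the P13 FMRP library, 0.179 without the P11 Hu library and 0.0507 without the P13 Hu library, and 0.151 when no filter on low counts was applied. Without the P11 FMRP library it was 0.0167.

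The other 6 members were not tested, having too few tags. Lrp6 had 8 and 9 FMRP tags at P11 and P13 and no Hu transcript tag, which makes it at least 7.4-fold higher with FMRP in transcript tags (6.05-fold by library totals). With no filter on low counts it passed edgeR's test (adjusted p = 0.029), and in the other fit that included it, without the P11 Hu library, it did not (adjusted p = 0.0742). The genomic lists do hold Hu tags in the Lrp6 gene: 3 in sense and 4 on the opposite strand, against 17 and 0 from the FMRP Illumina libraries. Abca3 had 15 and 6 FMRP tags at P11 and P13, against 0 and 4 Hu tags, a ratio of library-scaled totals of 6.86 (exact 95% counting interval 2.31 to 27.5). Abca3 passed the filter and the test when the P13 FMRP library was left out (log2 difference 3.75, adjusted p = 0.0434, edgeR), but not in the other 3 fits that included it: the adjusted p was 0.175 with no filter, 0.232 without the P11 Hu library and 0.0687 without the P13 Hu library. In the fit that called it, the P11 FMRP library is assumed to vary as the Hu libraries do.

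Lrp3 was not resolved by these counts. It had 4 and 8 FMRP tags at P11 and P13 and 4 and 4 Hu tags, a ratio of library-scaled totals of 1.96 with an interval of 0.736 to 5.53, and log2 differences of 0.09 in the P11 and 1.58 in the P13 lysate. Its Hu tags form a single pile with no counterpart in the genomic lists (described with the positions). Abca1 had 2 and 4 FMRP tags, against 0 and 1 Hu tags (ratio 7.84, interval 0.951 to 360). Lrp1b had 0 and 6 FMRP tags, against 0 and 2 Hu tags (ratio 3.92, interval 0.701 to 39.7). The 3 FMRP tags of Lrp5, set against 0 Hu tags, are at the limit of detection. Of the 6 members with 15 or more FMRP Illumina tags, Abca2, Scap and Lrp6 had no Hu transcript tag, against 12% of the 1119 genes at that level, which was chosen after the values were seen.

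**Figure D2:**
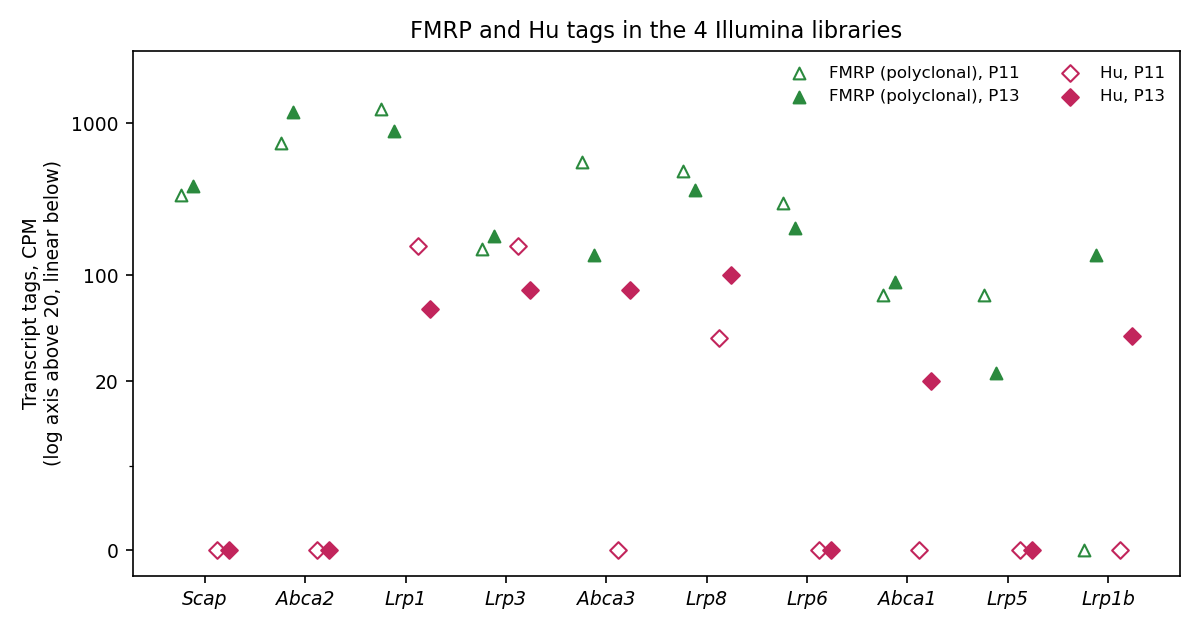
Transcript tags of each member in CPM (vertical axis, logarithmic above 20 and linear below) in the 2 FMRP libraries (triangles) and the 2 Hu libraries (diamonds) of Protocol 2; open symbols are P11 and filled symbols P13. Scap, Abca2, Lrp6 and Lrp5 have Hu values of 0 in both libraries, and Lrp3 is the member with the P11 Hu value (155 CPM) level with its FMRP values (149 and 182 CPM).

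Antibody, age and protocol were compared among the FMRP libraries on the authors' counts. Lrp1 was the only member among the 96 genes that passed the filter in the 5 libraries of Protocol 1. For antibody, the fit had no term for age, and only the monoclonal group had a P15 library. The log2 difference of Lrp1 between monoclonal and polyclonal libraries was -0.55 (SE 0.47, adjusted p = 0.999, edgeR), where 0% of genes were called higher and 0% lower. Without 1 library this value ran from -1.47 (P15 monoclonal left out) to -0.08 (P25 monoclonal left out). Across these genes 4 had an unadjusted p under 0.05, and DESeq2 called 0. Between P25 and P14 to P15, with antibody as a term, its log2 difference was -0.42 (SE 0.46, adjusted p = 0.756, edgeR), where 1.04% of genes were called higher. That share is 1 gene, Grit, named after its values were seen (log2 difference 1.49, SE 0.42, adjusted p = 0.0484), and DESeq2 called none. The sign of the Lrp1 age difference hung on single libraries: it was 0.26 without the P15 monoclonal library and 0.79 without the P25 monoclonal library.

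Protocol 2 libraries were set against the polyclonal libraries of Protocol 1, a comparison in which protocol, platform and age cannot be told apart. Abca2, Lrp1 and Scap were tested among 334 genes, and none passed. The log2 difference was -1.14 for Lrp1 (SE 0.55, adjusted p = 0.21), -1.08 for Scap (SE 0.50, adjusted p = 0.21) and -0.54 for Abca2 (SE 0.55, adjusted p = 0.567, edgeR for all 3). The Abca2 value was 0.07 without the P14 polyclonal library. In this comparison 4.19% of genes were called higher and 4.19% lower by edgeR, and 0 by DESeq2. Each of the 3 was lower in both Protocol 2 libraries than in both polyclonal libraries of Protocol 1, as were 31.7% of the 334 genes tested, and with 2 libraries a group an exact test cannot go below p = 0.333. Scap stood at 315 and 322 CPM in Protocol 2 and 684 and 864 CPM in Protocol 1. Lrp1 stood at 1179 and 599 CPM in Protocol 2 and 1729 and 2735 CPM in Protocol 1, and Abca2 at 747 and 1174 CPM in Protocol 2 and 2017 and 1197 CPM in Protocol 1.

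Along the transcripts, FMRP tags of the well tagged members were spread widely, and on Lrp1 and Lrp3 the few Hu tags lay in a short stretch past nearly all FMRP tags. On Lrp1 the 136 FMRP transcript tags of the 7 libraries ran from nucleotide 620 to nucleotide 14578, counted from the transcript's first base at the middle of the tag. Their quartiles were at 4004, 8818 and 11366, and the most tagged 100 nucleotides held 10 tags, or 7.35%. All 7 Hu tags of Lrp1 lay between 14272 and 14889, and 134 of the 136 FMRP tags lay before the first of them. The 4 Hu tags at P11 have no tag within the Lrp1 gene in the genomic list of that library, while the P13 list has 4 there. In genomic tags, Lrp1 had 58 from FMRP and 4 from Hu.

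On Abca2 the 118 FMRP tags ran from 98 to 7754 with a median at 4377, and the most tagged 100 nucleotides held 6.78% of them, from 4 libraries. On Scap the 56 FMRP tags ran from 390 to 4130 with a median at 2409, and the fullest 100 nucleotides held 7 tags from 4 libraries. The 20 FMRP tags of Lrp6, all with different starts, ran from 1156 to 4936. On these 3 transcripts no Hu tag was listed. Abca3 had 40 FMRP tags from 130 to 6425, and its 4 Hu tags lay in 2 places, the first at 1602 and the last at 5757, both within the FMRP range.

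On Lrp3 the 28 FMRP tags ran from 896 to 3721, whereas all 8 Hu tags lay within 3904 to 3909, past every FMRP tag. The Hu libraries have 0 tags within the Lrp3 gene in their genomic lists, and the 1 Hu tag of this pile whose name recurs in a genomic list was placed there at chr5:128002965-128003014 on the minus strand (mm9), not in Lrp3. The FMRP Illumina libraries had 11 genomic tags in Lrp3 beside 12 transcript tags. In genomic tags, Lrp3 thus had 11 from FMRP and 0 from Hu, where the transcript tags had 12 and 8. The 4 FMRP tags of Lrp3 at P11 lay in 1 place as well, from 3538 to 3541.

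On Lrp8 the FMRP tags ran from 608 to 6971 with a median at 3283, and 7 tags of the 36 (19.4%) lay from 3199 to 3292, all from 1 library. Its 6 Hu tags ran from 2424 to 7345, mixed among the FMRP tags. Abca1 had 7 FMRP tags between 1084 and 7010 and 1 Hu tag at 8168. Lrp1b had 7 FMRP tags between 2501 and 14579, no 2 of them within 100 nucleotides, and 2 Hu tags at 6780 and 6781. Positions are given as a description and were not tested.

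**Figure D3:**
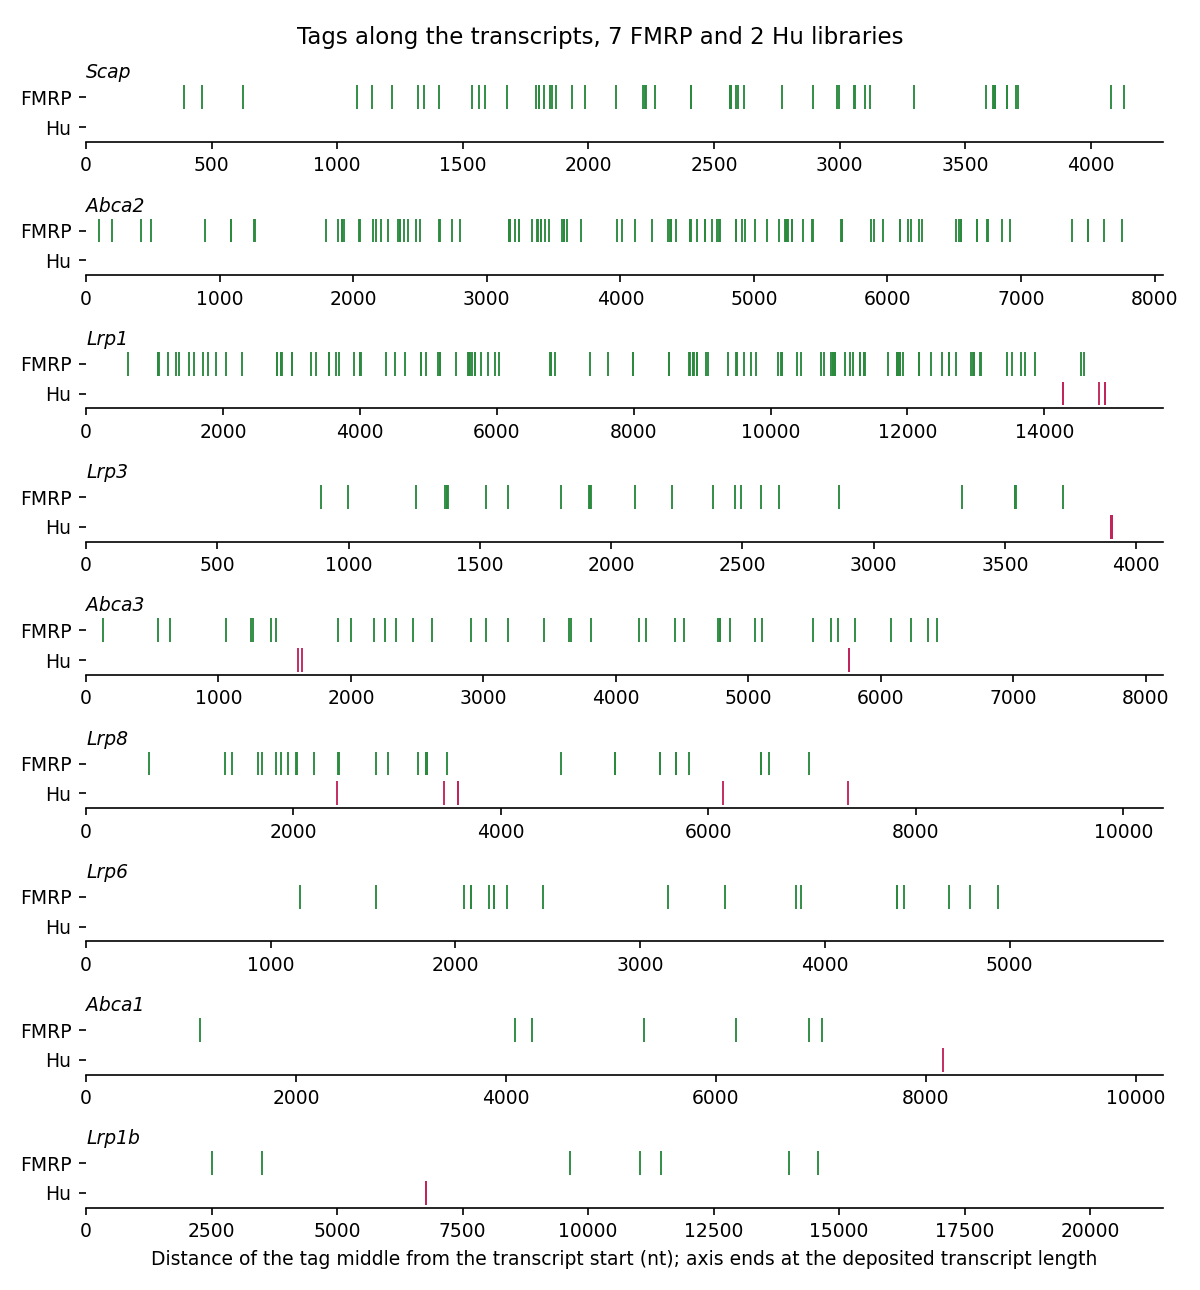
Position of the middle of every transcript tag, in nucleotides from the transcript start (horizontal axis, to the deposited transcript length), for the 7 FMRP libraries (upper row of each panel) and the 2 Hu libraries (lower row); Lrp5, with 3 tags, is left out. FMRP tags of Scap, Abca2 and Lrp1 run along most of the transcript, while the Hu tags of Lrp1 and Lrp3 sit near the far end.

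Coding sequence held most FMRP tags of the members in the authors' counts. Of the 409 tags, 378 (92.4%, Wilson 95% interval 89.4 to 94.6%) were coding, where tags spread evenly by length would give 80%. Over all genes the shares were 77.1% of tags and 55.1% by length. All 6 members with 20 or more tags had a larger coding share of tags than of length, as did 92.9% of the 1073 genes at that level, so this is what most FMRP-tagged mRNAs showed. The per-library share for the 10 members was 86.5% at P11 and 88.7% at P13 on Illumina and 95.7 to 100% on 454.

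Scap had 52 of 52 tags in coding sequence (interval 93.1 to 100%), which makes up 89.4% of its transcript, and Lrp1 had 115 of 117 (98.3%, interval 94 to 99.5%), against 87.1% of its length. Abca2 had 113 of 118 (95.8%, interval 90.5 to 98.2%), with 90.6% of its length coding, so the interval reaches down to the share by length. Lrp6 had 17 of 17 tags in coding sequence (interval 81.6 to 100%, 83.1% by length). For these 4 mRNAs little of the transcript is non-coding, and the measure has little room.

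The 3 well tagged members with long non-coding stretches had smaller coding shares on Illumina, with intervals that overlapped between platforms. Lrp3 had 6 of 11 coding tags on Illumina (54.5%, interval 28 to 78.7%), against 14 of 14 on 454 (interval 78.5 to 100%), with 58.9% of its length coding. Lrp8 had 9 of 22 on Illumina (40.9%, interval 23.3 to 61.3%), against 6 of 7 on 454 (85.7%, interval 48.7 to 97.4%), with 32.7% of its length coding. Abca3 had 16 of 21 on Illumina (76.2%, interval 54.9 to 89.4%), against 17 of 17 on 454 (interval 81.6 to 100%), with 64.6% by length. Over all genes the share was 81.6% at P11 and 69.7% at P13 on Illumina and 79.3 to 86.4% on 454, so that the P13 library alone stood low there. Platform, protocol and age move together in these values.

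**Figure D4:**
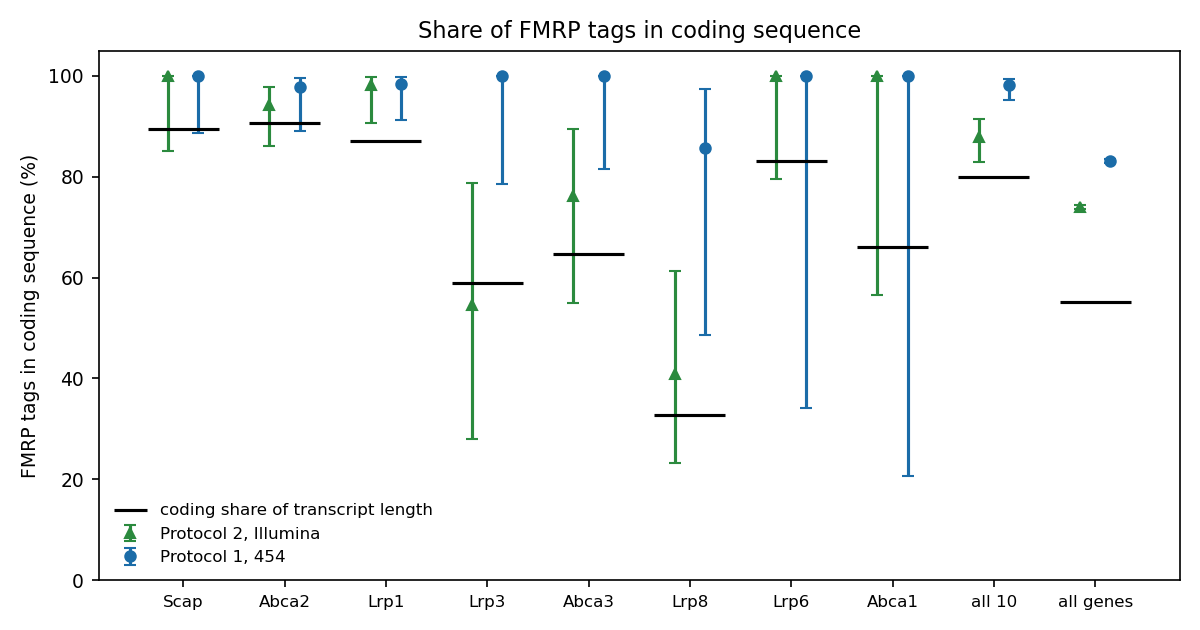
Percent of FMRP tags in coding sequence (vertical axis) for 8 members, all 10 together and all genes, in the 2 Illumina libraries (triangles) and the 5 libraries on 454 (circles), with Wilson 95% intervals; the black line is the coding share of the transcript length. Lrp3, Abca3 and Lrp8 have lower shares on Illumina, while Scap and Lrp1 are near 100% in both.

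Other genes of the same pathways were mostly too sparse to test in FMRP against Hu. Of 11 other members of the LDL receptor family, 8 had a tag and none passed the filter. Lrp11 had 1 and 5 FMRP tags, against 1 and 3 Hu tags. Of 33 ligands, chaperones and adaptors, 23 had a tag, 2 were tested and both were called higher with FMRP, beside 33.5% of all genes tested.

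These were Mapk8ip1 (JIP1), a kinase scaffold that binds the Lrp8 tail, and Reln, the reelin ligand of Lrp8. Mapk8ip1, which passed the filter through its FMRP tags, had 23 and 35 FMRP tags at P11 and P13, against 1 and 0 Hu tags (ratio 75.7, interval 13.1 to 3043, adjusted p = 0.00273, edgeR). Reln had 13 and 14 FMRP tags, against 4 and 8 Hu tags (log2 difference 1.55, SE 0.59, adjusted p = 0.0441, edgeR). The Reln call was lost with the lysate as a block (adjusted p = 0.115) and in 9 of 11 alternatives, among them without any 1 library (0.114 to 0.362). Dkk3, a secreted relative of the Dickkopf Wnt inhibitors, led the list in Hu tags with 8 and 10, beside 0 and 4 FMRP tags (ratio 0.29, interval 0.0714 to 0.881). None of the 18 other lipid ABC transporters was tested: Abcd2, a peroxisomal fatty acid transporter, had 4 and 6 FMRP tags, against 1 and 3 Hu tags, and Abca5 had 2 and 6 FMRP tags, against 3 and 16 Hu tags.

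Other genes of sterol sensing were led by Srebf2 in FMRP tags and by Insig1 in Hu tags. Srebf2, an SREBP factor that Scap escorts, had 18 and 22 FMRP tags at P11 and P13, against 11 and 13 Hu tags, and did not pass the test (log2 difference 1.05, SE 0.66, adjusted p = 0.183, edgeR). Insig1, which retains Scap in the endoplasmic reticulum, had 1 and 2 FMRP tags, against 16 and 14 Hu tags, and was not tested (ratio 0.131, interval 0.0255 to 0.42). It was 1 of 13 genes with a tag among 16 of sterol sensing. Whether these genes differ from Scap in their FMRP to Hu ratio was not tested.

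Of 27 genes of cholesterol and fatty acid synthesis, 25 had a tag and 3 were tested. Fasn, the fatty acid synthase, had 67 and 65 FMRP tags at P11 and P13, against 0 and 3 Hu tags (ratio 57.5, interval 19.2 to 282, adjusted p = 0.0025, edgeR). Like Mapk8ip1, it passed the filter through its FMRP tags, so its being tested and called is no support in itself.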

How the data were processed

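Per the submitters' processing notes, reads were aligned with Novoalign to mm9, with no version given. The authors deposited, for each library, unique tags placed on the genome and on RefSeq transcripts; beside each tag the 454 lists hold whole-number counts of merged reads and the Illumina lists a score of no stated meaning, as deposited by the authors. Neither was used: 1 line was 1 tag. The authors' table lists, gene by gene, whole-transcript and coding tag counts of each FMRP library (7 in all). It also holds, as deposited, an exon array intensity, a log2 neuron expression (not used), the number of tagged libraries, a chi-square and an FDR (scores, the FDR exceeding 1 in many lines), a p-value of the authors' own, and a published wild type over knockout ratio. Per the file headers, transcript lengths combine all transcripts of a gene, so positions were not divided by them.

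Transcript tags were summed to 11618 genes by RefSeq identifier. Lines naming no gene held 0.248% of the authors' tags and were left out. The tests ran in edgeR 4.0.16 under R 4.3.3 (TMM, filterByExpr, quasi-likelihood test, Benjamini-Hochberg over all genes tested, threshold 0.05, two-sided). The SE is the log2 difference divided by the root of F. FMRP against Hu used transcript tags of the 4 Illumina libraries. Antibody, age and protocol used the authors' counts. Scripts were tested on simulated data. Python 3.11.15, scipy 1.17.1 and DESeq2 1.42.0 were also used.

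The P11 and P13 lysates were each divided between FMRP and Hu, per the series text, so libraries of 1 lysate are paired. The correlation of their P11 minus P13 deviations was 0.16 over 1015 genes. No label says that replicates are separate litters, and p-values reflect only how these libraries spread, which may be technical. The rule for named genes took all 10 members and, from each of 5 pathway lists, up to 5 called genes with the largest fold and the genes with most FMRP and most Hu tags; some of these are not reported here. The members and all lists were chosen with earlier results of these data known. Genome and protein sequences were not used here. Alternatives were other scaling, no filter, DESeq2, the lysate as a block, genomic tags, 1 tag per start position and leaving out each library.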

Additional observations from a re-analysis of the deposited data

Results flagged for a closer look

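Lrp1b stood apart because the genomic lists hold more tags in its gene than its transcript does. Its gene spans 2057 kb. The FMRP Illumina libraries had 25 sense tags in it (8 at P11 and 17 at P13), against 6 on the transcript, and the Hu libraries had 66 (26 at P11 and 40 at P13), against 2 on the transcript. On the opposite strand of the gene there were 6 FMRP and 14 Hu tags. The sense tags were scattered: with neighbours more than 1 kb apart counted as separate places, FMRP tags fell in 21 places and Hu tags in 47, with at most 3 FMRP and 5 Hu tags in any 1 kb. In genomic tags the log2 difference of Lrp1b between FMRP and Hu was -1.09 (adjusted p = 0.136, edgeR), the opposite sign to the ratio of its transcript tags. What the tags outside the transcript are was not tested. No group has the 4 samples that a check for outlying libraries needs.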

How the results depend on the processing

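In FMRP against Hu, 611 genes were called, and 602 with the lysate as a replicate block, which changed no call of a member. Of the pathway genes named, Mapk8ip1 and Fasn, which both passed the filter through their FMRP tags, kept their calls under all 12 alternatives. Reln lost its call under 9 of 11, the block among them. Leaving out 1 library gave 323 to 531, the lowest without the P11 Hu library, and moved the directions further: 422 higher and 84 lower without the P11 FMRP library, and 249 higher and 282 lower (median of all genes -1.17) without the P13 FMRP library, against 340 and 271 with all. The members called numbered 4, and 3 or 4 under the alternatives (3 to 4 without 1 library, 3 with genomic tags), though not always the same: Lrp6 was called and Lrp8 not when no filter was applied, and Abca3 was called and Lrp8 not without the P13 FMRP library. Lrp1 kept its call under all 12 alternatives (log2 difference 3.07 to 4.29), Abca2 under all 12 and Scap under the 11 that tested it; Lrp8 lost it under 4 of 11, as given above. The median of all genes was -0.17, and 0.21 with RLE size factors (382 higher, 238 lower) and -0.43 with library totals (335 higher, 379 lower). All were smaller in size than the differences of the 4 members called, which does not extend to the members not tested. DESeq2 called 334 genes higher and 128 lower; without the filter these were 376 and 155. The antibody comparison called 0 genes under all 8 alternatives. Age gave 1 gene, and 0 with RLE size factors, with no filter on low counts, with DESeq2 and without any 1 library (0 to 0). The Lrp1 age difference ranged from -1.91 (without the P14 polyclonal library) to 0.79 without 1 library, and its sign turned without the P15 (0.26) or P25 (0.79) monoclonal library. Protocol gave 28 calls, but 0 by DESeq2 and 1 to 20 without 1 library: 1 without the P14 and 3 without the P25 polyclonal library, 20 without P11 and 15 without P13. The Abca2 protocol difference turned to 0.18 with no filter on low counts and 0.07 without the P14 polyclonal library, within -0.88 to 0.07 over the libraries left out; the causes were not tested. The coding share of 92.4% was 95.4% as a mean of library shares, which weights the 454 libraries more, and 91.7 to 94.2% without 1 library. Scap at 174 CPM per kb was 185 in the transcript lists and 159 to 190 without 1 library. The fullest 100 nucleotides of Lrp1 held 7.35% of its FMRP tags, 7.35% within 200 nucleotides and 6.98% with 1 tag per start position. At 454 depth, a member with 0 tags could still have up to 389 to 682 CPM.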
